A study of Caenorhabditis elegans with 24 samples.

Results

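The hairpins mir-34, mir-67, mir-76 and mir-236 are single-copy miRNA genes of Caenorhabditis elegans, and their mature arms were followed through embryogenesis in small RNA libraries. Every row of the deposited table that belongs to these hairpins was taken, which gave 8 arms of the 434 in the table. The hairpins were chosen by their levels over the timecourse, which were known beforehand, so onset, peak and level are given as a description, with no test. The table lists the arms as cel-miR-67-3p, with 6713 reads in all, cel-miR-76-3p with 3068, cel-miR-236-3p with 1323, cel-miR-34-3p with 746 and cel-miR-34-5p with 17, beside 3 sparser 5p arms. The prefix is dropped below.

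Embryos came from wild-type N2 worms: adults were cut open, and a mouth pipette was used to pick embryos by age. Age was counted in minutes from the 4-cell stage. The first 4 stages were 60, 120, 180 and 225 min and the last 4 were 270, 330, 410 and 500 min, with 3 libraries at each and 24 in all. Each sample was a pool of 50 whole embryos, and no mutant or treatment was involved. In such bulk samples, fewer cells of a type and less RNA per cell cannot be told apart. The labels name no separate cultures behind the triplicates, so p-values measure only the spread between these samples, which may be technical. Total counts ran from 88482 to 1594151 per library, and 1 read weighs most in the shallow ones.

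A miRNA is cut from a hairpin precursor whose 5p and 3p arms can each yield a mature strand. The strand loaded into Argonaute pairs with target mRNAs through its seed, the bases near its 5′ end. The miR-34 family is conserved across animals. In mammals its genes are targets of the transcription factor p53, and in worms mir-34 has been tied to the response to DNA damage and to the shaping of the gonad. miR-67 is a worm miRNA often used as a non-targeting control in mammalian cells. miR-236 carries the seed of the miR-8 and miR-200 family, which in mammals is known for holding epithelial cells in their epithelial state.

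The hairpins lie apart from each other and from other miRNA genes, with no other annotated miRNA gene within 10000 bp of any of the 4 in the WBcel235 annotation. The gene of mir-34 spans 2969752 to 2969848 on the minus strand of chromosome X. It overlaps no other annotated gene, and the nearest protein-coding gene is gbb-1, a GABA-B receptor subunit, 1560 bp away. The gene of mir-67 spans 5931349 to 5931447 on the minus strand of chromosome III, inside an intron of zmp-1, a matrix metalloproteinase gene of the same strand. The noncoding gene EGAP1.4 on the opposite strand overlaps 18 bp of it, and whether reads were counted by strand is not given in the sources used here. The gene of mir-76 spans 3142045 to 3142141 on the plus strand of chromosome III, 57 bp from C44B11.4. The gene of mir-236 spans 7030180 to 7030277 on the minus strand of chromosome II, 24 bp from znf-598. The build used for counting is not given in the sources used here, so these positions describe the genes and not the authors' alignment.

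The reads of all 4 hairpins fell almost entirely on the 3p arm. Over the 24 libraries, miR-67-3p had 6713 reads against 2 for miR-67-5p, and miR-76-3p had 3068 against 0 for miR-76-5p. The 0 reads of miR-76-5p allow a share of up to 0.0978% of the hairpin's reads (3 counts). miR-236-3p had 1323 reads against 4 for miR-236-5p. miR-34-3p had 746 reads against 17 for miR-34-5p, so the 5p arm held 2.23% of the reads of mir-34 (exact 95% binomial interval 1.30% to 3.54%, counting error only). In animals the 5p arm of mir-34 is the one that carries the conserved seed. A lopsided hairpin was common in the table: of 88 hairpins with both arms listed and at least 100 reads, 65 had at least 95% of their reads on 1 arm. The 3p arm led in 49 of the 88. Other hairpins, picked after their values were seen, went either way. Over the 24 libraries miR-1-5p averaged 577 CPM and miR-1-3p 30.2 CPM, and miR-39-5p averaged 4803 CPM and miR-39-3p 24.1 CPM, although the 3p arm is the usual mature strand of both. In the family of mir-39, miR-36-3p averaged 14470 CPM and miR-36-5p 29.9 CPM, and miR-35-3p averaged 1291 CPM and miR-35-5p 383 CPM, with most reads on the usual strand. Whether the arm names of the table match the strands sequenced was not tested, so arms are named here as the table lists them.

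Of the 8 arms, only the 4 3p arms passed the filter on low counts, which kept 128 of the 434 arms. The 5p arms are described by their reads. The 17 reads of miR-34-5p came at the end of the timecourse, with 3 at 410 min, all in replicate 2, and 14 at 500 min, of which 13 were in replicate 1 and 1 in replicate 2. The 4 reads of miR-236-5p lay at 180, 330 and 500 min, and the 2 reads of miR-67-5p at 60 and 410 min.

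Levels are given as CPM, that is, reads scaled to a library size common to all libraries, with TMM factors that set the bulk of the miRNAs equal between libraries. Onset is the earliest stage whose mean reached 10% of the arm's highest stage mean. By this measure the arms came on in the order miR-67-3p at 60 min, miR-236-3p at 225 min, miR-76-3p at 330 min and miR-34-3p at 410 min. They reached 50% of their peak at 225, 270, 410 and 500 min, in the same order, and peaked at 270, 330, 500 and 500 min. The onset of miR-34-3p was 120 min instead at 5% of the peak, with total counts in place of TMM factors, or without 120 min replicate 1. That of miR-67-3p was 120 min with total counts or without 60 min replicate 2. miR-67-3p and miR-236-3p were highest in the middle of the sampled period. miR-76-3p and miR-34-3p were highest at its last stage, so a later peak was not sampled.

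**Figure D1:**
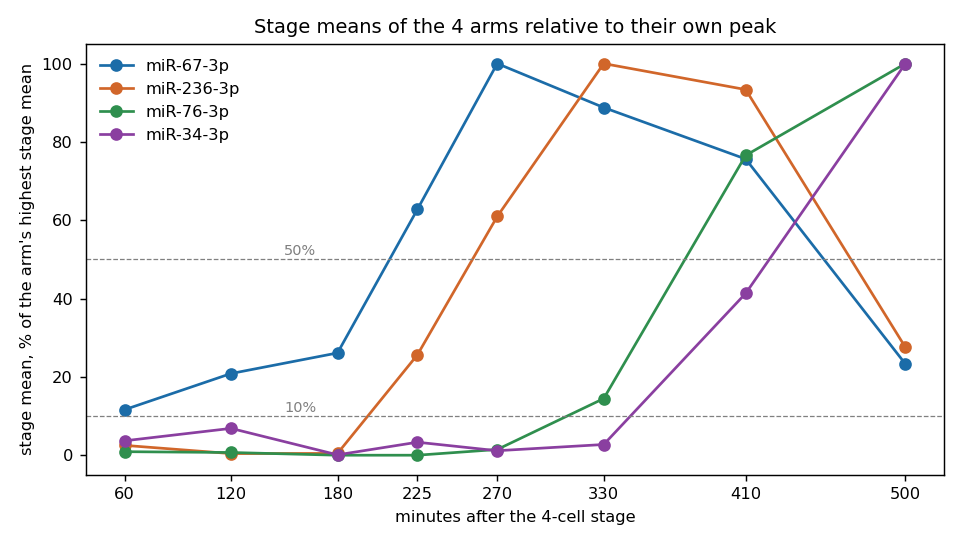
Mean TMM-scaled CPM of each stage as a percent of the arm's own highest stage mean (y axis) against minutes after the 4-cell stage (x axis), with 1 line per arm and dashed lines at 10% and 50%. The stage mean first lies above the 50% line for miR-67-3p at 225 min, miR-236-3p at 270 min, miR-76-3p at 410 min and miR-34-3p at 500 min.

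miR-67-3p was the earliest of the 4 and the only one with reads in most of the early libraries. At 60 min its libraries held 112, 296 and 0 CPM, from 10, 29 and 0 reads. The library with none was replicate 3, the deepest at that stage, where 3 counts would be 14.3 CPM. At 120 min the values were 330, 366 and 37.0 CPM, and at 180 min 441.5, 99.0 and 377 CPM. The libraries of these 3 stages overlapped each other, so no step up to 180 min stood outside the spread.

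From 225 min every library of miR-67-3p had at least 29 reads. They held 731, 781 and 694 CPM at 225 min, all above those at 180 min, and the mean was 2.40 times that of 180 min. At 270 min they held 1119, 1306 and 1090 CPM, with a mean of 1172 ± 118 CPM (SD, n = 3), the peak of the timecourse. The next levels in order, 1040 ± 233 CPM at 330 min and 886 ± 112 CPM at 410 min, had libraries that overlapped their neighbour in the order. At 500 min the arm stood at 286, 395 and 138 CPM. All 3 libraries lay below those of 410 min, and the mean was 0.308 times that of 410 min. The level at 500 min overlapped those at 180, 120 and 60 min, the stages nearest to it in order.

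miR-236-3p was nearly unread before 225 min. It had 2 reads at 60 min, 1 at 120 min and 1 at 180 min, and each of these came from replicate 1 of its stage. At 225 min it had 33, 4 and 37 reads, or 121, 36.7 and 71.5 CPM. From pooled reads, the ratio of 225 min to 180 min was 104, with an exact 95% counting interval of 18.0 to 4151. With TMM factors, of the 7 steps between neighbouring stages, this was the only 1 at which the libraries of miR-236-3p did not overlap.

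The plateau of miR-236-3p was broad. It held 179, 257 and 109 CPM at 270 min and 176, 468 and 250 CPM at 330 min. At 410 min it held 151, 415 and 268 CPM. The means were 182 ± 74.2, 298 ± 152 and 278 ± 132 CPM (SD, n = 3 each), and which of the last 2 stages is the peak is within the spread. At 500 min the libraries held 65.5, 166 and 14.3 CPM, and the lowest of them rested on 3 reads. The range at 500 min overlapped those at 270 and 410 min, but not that at 330 min, where the lowest library held 176 CPM. With total counts, the libraries of 500 min, at most 108 CPM, lay below all those of 270, 330 and 410 min. In each stage from 270 min on, replicate 2 was the highest of the 3.

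miR-76-3p was unread at 2 stages and had few reads at the one before its onset. At 180 and 225 min none of the 6 libraries had a read, which allows a level of up to 2.38 CPM at 180 min and 3.33 CPM at 225 min (3 counts over the 3 libraries). At 270 min the libraries had 47, 0 and 8 reads, or 37.4, 0 and 17.1 CPM. Replicate 1 thus supplied 47 of the 55 reads, and with replicate 2 at 0 the libraries of 270 min overlapped those of 225 min. At 330 min they held 110, 171 and 260 CPM, at 410 min 914, 923 and 1028 CPM, and at 500 min 1297, 1296 and 1150 CPM. At each of these last 3 steps every later library was above every earlier one. With total counts in place of TMM factors the last step overlapped, with 765 CPM in 500 min replicate 3 and 807 CPM in 410 min replicate 2.

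As ratios, the last 3 steps of miR-76-3p grew smaller with time, while in CPM the mean rose most from 330 min (180 CPM) to 410 min (955 CPM). The mean at 330 min was 9.94 times that at 270 min, the mean at 410 min 5.29 times that at 330 min, and the mean at 500 min 1.31 times that at 410 min. At 500 min the arm stood at 1247 ± 84.8 CPM (SD, n = 3). Its libraries differed little at the 2 last stages, while at 330 min the highest held 260 CPM and the lowest 110 CPM. The stage mean put it at rank 31 of the 434 arms at 500 min, at rank 32 at 410 min and at rank 49 at 330 min.

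miR-34-3p came last. At 330 min it had 0, 8 and 0 reads, or 0, 33.4 and 0 CPM. At 410 min all 3 libraries had reads, 109, 35 and 167 of them, or 232, 120 and 153 CPM. These lay above all libraries of 330 min, and the mean was 15.1 times as high. At 500 min the libraries held 616, 388 and 219 CPM, a mean of 408 ± 199 CPM (SD, n = 3). The lowest library of 500 min lay below the highest of 410 min, so the last step did not stand outside the spread.

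**Figure D2:**
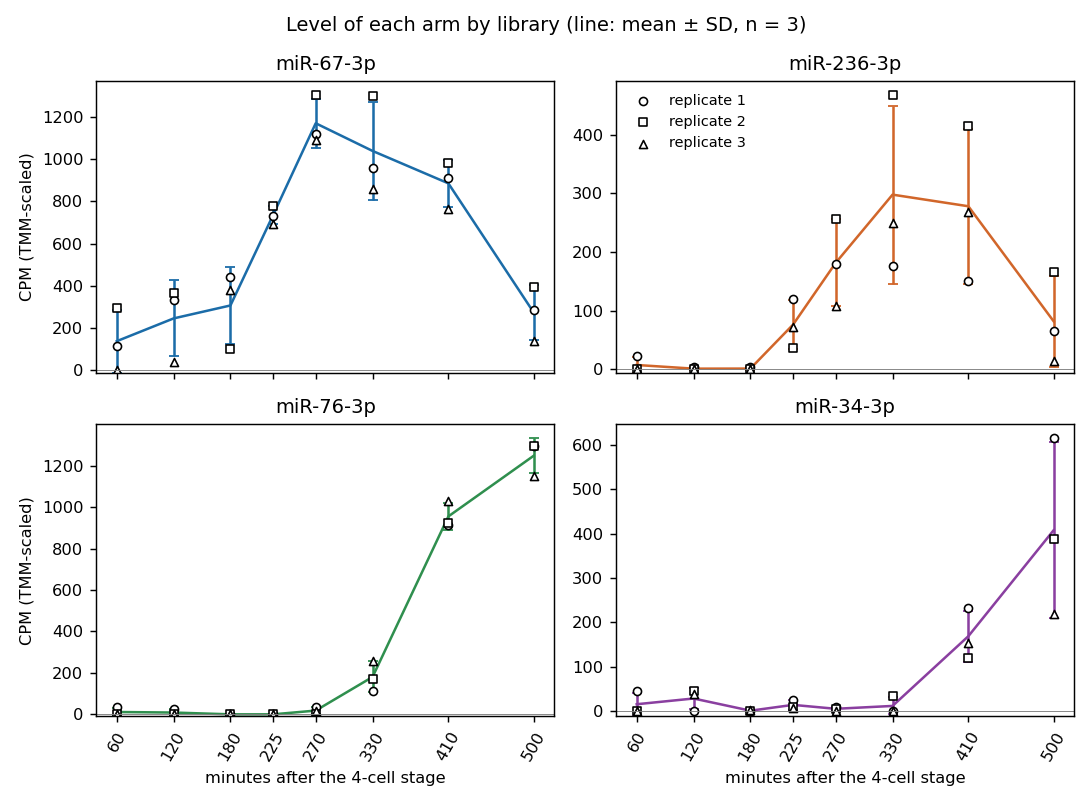
TMM-scaled CPM (y axis, a separate scale in each panel) of miR-67-3p, miR-236-3p, miR-76-3p and miR-34-3p against minutes after the 4-cell stage (x axis); points are libraries, marked by replicate number, and lines join stage means with SD bars (n = 3). The libraries of miR-76-3p lie between 914 and 1028 CPM at 410 min, all above those of 330 min, while those of miR-34-3p at 500 min spread from 219 to 616 CPM.

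Reads of the later arms also appeared in a few early libraries. At 60 min, replicate 1 had 4 reads of miR-34-3p, 3 of miR-76-3p and 2 of miR-236-3p, and replicates 2 and 3 had 0 of each. At 120 min, replicate 1 had 7 reads of miR-76-3p and 0 of miR-34-3p, and replicates 2 and 3 had 9 and 23 reads of miR-34-3p, or 45.1 and 38.7 CPM. At 180 min miR-34-3p had 1 read, in replicate 3. The libraries of 180 and 120 min overlapped, so this step did not stand outside the spread. At 225 min all 3 libraries had reads of miR-34-3p again, 7, 1 and 3 of them. At 270 min it had 11, 3 and 0 reads. It thus had reads in at least 2 libraries at 120, 225 and 270 min, all before its onset.

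The early reads were set beside a sum of 4 abundant late miRNA arms, those of miR-81-3p, miR-82-3p, miR-57-3p and miR-228-5p. This sum made up 1.98%, 1.59% and 4.06% of counts in replicates 1, 2 and 3 of 60 min. At 60 min the sum was highest in replicate 3, and the reads of the later arms were in replicate 1. At 120 min the sum was 2.01%, 2.04% and 2.75% in replicates 1, 2 and 3, and at 500 min it averaged 59.5% ± 6.13 (SD, n = 3). It already averaged 14.2% ± 2.21 at 180 min and 25.8% ± 4.13 at 225 min, so it does not mark the last stages alone. At 120 min replicate 3 had the highest sum and the most reads of miR-34-3p, but by CPM miR-34-3p was higher in replicate 2 (45.1 against 38.7 CPM). Replicate 1 had the lowest sum and 0 reads of miR-34-3p, but 7 reads of miR-76-3p, of which replicates 2 and 3 had 0. The source of these early reads was not tested.

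The share of each arm in the summed reads of the 4 needs no scaling between libraries. The share of miR-67-3p was 99.6% ± 0.466 at 180 min (SD, n = 3 here and for the following shares) and 85.4% ± 3.69 at 270 min. It was 38.7% ± 3.63 at 410 min, and only 13.1% ± 4.27 was left by 500 min. That of miR-236-3p was 9.16% ± 4.65 at 225 min, 18.7% ± 4.78 by 330 min and 3.75% ± 3.32 in the 500 min libraries. The share of miR-76-3p was 1.39% ± 1.39 at 270 min and 12.2% ± 5.88 at 330 min, then 41.9% ± 4.36 at 410 min, and it reached 63.5% ± 10.4 by 500 min. miR-34-3p supplied 0.564% ± 0.976 of these reads at 330 min, then 7.45% ± 2.84 at 410 min, and 19.6% ± 6.71 of those in the 500 min libraries.

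Within each library of 330 min, miR-67-3p had more reads than miR-76-3p. At 410 min the order differed between replicates, with 427, 287 and 833 reads of miR-67-3p against 429, 269 and 1121 of miR-76-3p. At 500 min miR-76-3p led in all 3 libraries, and miR-34-3p also had more reads than miR-236-3p in each. Together the 4 arms made up 0.0147% ± 0.0146 of all counts at 60 min, and by 270 min 0.162% ± 0.0397 (SD, n = 3 per stage). Their sum was 0.182% ± 0.0312 of counts at 410 min, with 0.136% ± 0.0306 in the 500 min libraries.

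**Figure D3:**
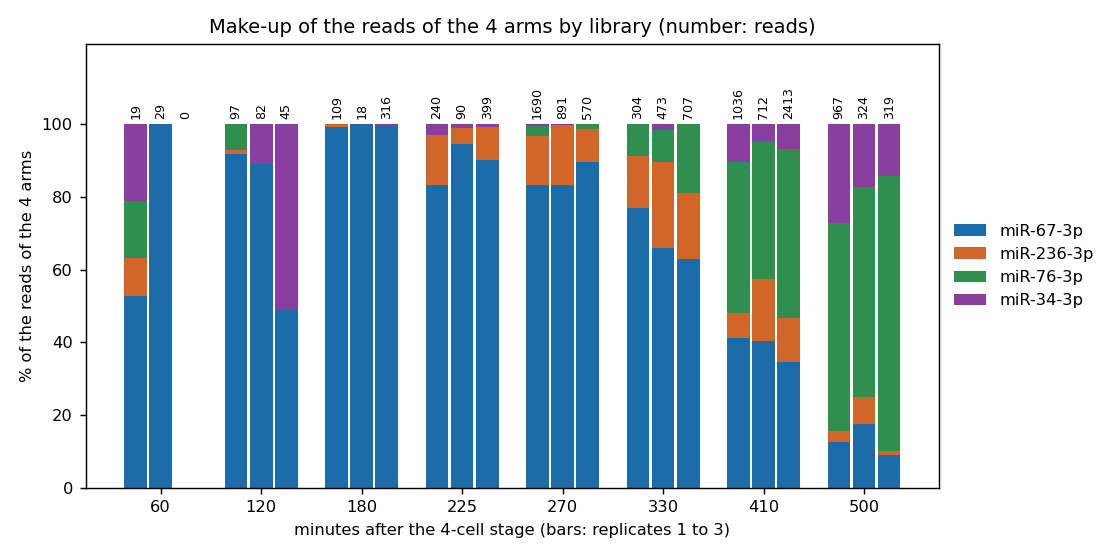
Share of each arm in the reads of the 4 arms (y axis, percent) in every library (bars, replicates 1 to 3 within each stage, x axis in minutes after the 4-cell stage); the number above a bar is the reads it rests on, and 60 min replicate 3 had 0. miR-67-3p fills 99.1% to 100% of the 180 min bars, and miR-76-3p 57.3% to 75.5% of the 500 min bars.

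Each arm's steps were set beside those of all 128 tested arms, as a background only, since the arms were chosen with these values known. From 180 to 225 min, 3 of the 4 arms (miR-67-3p, miR-236-3p and miR-34-3p) had every library of 225 min above those of 180 min, against 8.59% of tested arms. The call of miR-34-3p rested on 11 reads at 225 min and 1 at 180 min. From 225 to 270 min this held for 1 arm, miR-67-3p, against 13.3% of tested arms. From 270 to 330 min it held for miR-76-3p, against 7.81%, and from 330 to 410 min for miR-76-3p and miR-34-3p, against 21.1%. With TMM factors, at 500 min against 410 min miR-76-3p was higher without overlap (9.38% of tested arms were) and miR-67-3p lower without overlap (11.7% were). At 500 min against 60 min, miR-76-3p and miR-34-3p were higher without overlap, against 32.0% of tested arms.

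An onset as late as these was not the usual case in the table. Of the 128 tested arms, 83 had already reached 10% of their highest stage mean at 60 min, as miR-67-3p had. 21 arms (16.4%), miR-236-3p, miR-76-3p and miR-34-3p among them, first reached it at 225 min or later, and 9 (7.03%) at 410 min or later. A peak at 500 min was shared by 26 arms, a peak at 330 min by 9 and a peak at 270 min by 9.

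The arms of most similar timing differed for each of the 4. Likeness was measured as the root mean square difference, over the 8 stages, between stage means given as percent of each arm's own peak, across 124 other tested arms. For miR-67-3p the nearest was miR-45-3p, at 16.3 percentage points, followed by miR-72-3p at 21.1. For miR-236-3p they were miR-1822-5p at 14.4 and miR-55-3p at 15.3. For miR-76-3p they were miR-83-3p at 6.56 and miR-87-3p at 7.68. For miR-34-3p they were miR-242 at 3.04 and miR-248 at 4.45. The median distance over all 124 arms was 50.6 to 54.9 percentage points for each of the 4. Among themselves, miR-76-3p and miR-34-3p were 13.4 percentage points apart and miR-67-3p and miR-236-3p 23.8, and the other pairs 46.2 to 59.9.

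Likeness of profile takes no account of level. miR-242 reached 2048 ± 202 CPM at 500 min and miR-87-3p 6716 ± 919 CPM, while miR-83-3p reached 104 ± 24.5 CPM (SD, n = 3 each). miR-45-3p peaked at 1426 ± 85.8 CPM at 270 min, the peak stage of miR-67-3p, which held 1172 ± 118 CPM there. At 330 min miR-1822-5p held 164 ± 119 CPM, a range of SD that overlaps the 298 ± 152 CPM of miR-236-3p. miR-242 and miR-248 had no read at 60 and 120 min, the stages at which miR-34-3p had 4 and 32. miR-1822-5p had none from 60 to 225 min, where miR-236-3p already had 74 reads at 225 min.

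**Figure D4:**
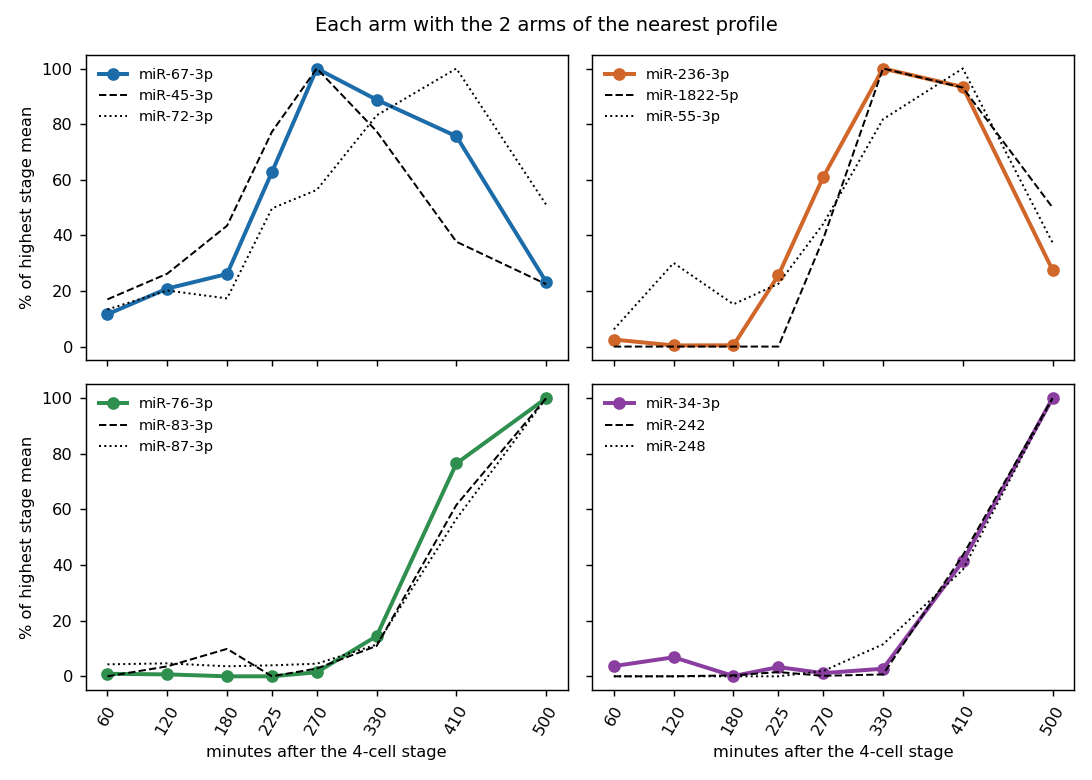
Stage mean TMM-scaled CPM as a percent of the arm's own highest stage mean (y axis) against minutes after the 4-cell stage (x axis), for each arm (thick line) and the 2 tested arms of nearest profile (dashed and dotted). miR-34-3p and miR-242 differ by a root mean square of 3.04 percentage points, miR-67-3p and miR-72-3p by 21.1.

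For context, a list of 20 other C. elegans hairpins with relatives in other animals was taken. The list was chosen with earlier results of these data known, so its split beside all tested arms is a description. Of its 40 arms, 20 passed the filter on low counts and were compared between the last and first stage with edgeR's quasi-likelihood test. The hairpins mir-1, mir-50, mir-71, mir-72, mir-79, mir-83, mir-87 and mir-228 had both arms tested, so the 20 arms are not 20 independent miRNAs. Others, such as let-7 and lin-4, had none. Of the 20 tested arms, 15 were higher at 500 min than at 60 min, 2 were lower and 3 did not pass the test. Over all 128 tested arms, 34.4% were called higher and 28.1% lower. With DESeq2 size factors the split of the list was 16 higher and 0 lower (also 0 at an unadjusted p under 0.05). The median log2 fold change of the list was 4.45, and 3.62 with arms unread at 60 or 500 min set to their bound. Such arms were set to 0 if they had at most 3 reads at the other stage. Over all tested arms the median was 0.30 and 0.03. Other scalings moved the median of all tested arms to 0.59 (DESeq2 size factors) and 0.08 (total counts). The 2 lower calls of the list were down to 0 without 60 min replicate 3, 500 min replicate 2 or 500 min replicate 3, and to 1 without 60 min replicate 1 or 500 min replicate 1 (at an unadjusted p under 0.05, 0, 1 and 1 in the cases of 0 calls). With filter and scaling recomputed each time, 5 of the 6 fits that each left out a library of these stages had 0 lower calls (0 also unadjusted), and the fit without 500 min replicate 3 had 1.

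The 3 most abundant arms of that list stood on both sides. miR-57-3p, an arm of mir-57, a hairpin of the miR-10 family, held 379401 ± 81021 CPM at 500 min, against 15295 ± 6615 CPM at 60 min (SD, n = 3 for each mean). Its log2 fold change was 4.63 ± 0.42 (SE, edgeR adjusted p = 4.7e-11). Whether miR-57-3p carries the seed of that family was not looked up, and its name was not tested against the strand sequenced. miR-228-5p, related to miR-183 of vertebrates, had 241538 ± 47471 CPM at 500 min and 4378 ± 4080 CPM at 60 min, a log2 fold change of 5.78 ± 0.60 (edgeR adjusted p = 8.84e-10). miR-72-5p, related to miR-31, was called lower, at 180795 ± 9678 CPM at 500 min and 339985 ± 87550 CPM at 60 min (log2 fold change -0.91 ± 0.37, edgeR adjusted p = 0.0330). The other lower arm was miR-71-5p, named after its value was seen (-1.67 ± 0.71, edgeR adjusted p = 0.0433). The 3p arms of both hairpins, given here after their values were seen, went the other way. miR-72-3p was called higher (1.93 ± 0.53, edgeR adjusted p = 0.00297), and miR-71-3p was not called (1.70 ± 0.84, edgeR adjusted p = 0.0748).

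Tissue markers gave the setting of the embryos. The mir-35 family, abundant in early embryos, made up 0.0473% ± 0.0195 of counts at 500 min, against 5.02% ± 0.314 at 60 min. Of its 14 tested arms, 12 were lower at 500 min, against 28.1% of all tested arms. Its 3 most abundant arms were miR-36-3p, miR-39-5p and miR-35-3p, with log2 fold changes of -7.09, -10.95 and -8.77. Muscle miR-1-5p had its highest stage mean at 225 min and neuronal lsy-6-3p at 410 min. The tested arms of mir-1, lsy-6 and mir-124 were all called higher at 500 min (2 of 2 for muscle, 2 of 2 for neurons), against 34.4% of all tested arms. Those of mir-1 and mir-124 are also counted in the list of hairpins with relatives in other animals. The single tested intestinal arm, miR-60-3p, was called lower at 500 min than at 60 min (log2 fold change -1.76 ± 0.72 SE, edgeR adjusted p = 0.0373). Its highest stage mean was at 270 min. Of 12 arms of hairpins that mark larval and adult tissue of the mother, 3 had no read in any library. Most reads of the list were those of miR-48-5p, with 1498 in all, followed by miR-48-3p with 168, miR-241-3p with 64 and miR-241-5p with 46, while miR-237-5p had 8, lin-4-5p 3, and let-7-5p, let-7-3p and lin-4-3p 1 each. miR-48-5p averaged 159 ± 114 CPM at 500 min and 319.7 ± 506 CPM at 60 min (SD, n = 3 at either stage). The tested arms, miR-48-5p and miR-48-3p, were not called (edgeR adjusted p = 0.374 and 0.157). The sum of these 12 arms ranged over 0.00286% to 0.0240% of counts at 500 min and 0% to 0.0666% at 60 min. The highest of these was in 60 min replicate 3, the library with 0 reads of miR-67-3p. The part of any of these tissues in the levels of the 4 arms was not tested.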

How the data were processed

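Small RNA was sequenced from 24 pools of N2 embryos with a TruSeq small RNA kit, per the labels' protocols. The authors deposited raw read counts per mature miRNA arm, and Bowtie and HTSeq are named in the submitters' processing notes. Versions, build, annotation, strand setting and the treatment of multiply mapped reads are in none of the sources used here and so not given. Reads of different arms were not corrected for ligation efficiency, and no molecular identifiers are described, so intervals and floors cover counting error only.

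The members, lists and tests were chosen with earlier results of these data known. Arms were kept by filterByExpr (minimum count 10 with stage as group). Counts were scaled by TMM in edgeR 4.0.16 (R 4.3.3), and 500 min was compared with 60 min by the quasi-likelihood test over all 24 libraries, with stage as a factor. P-values were adjusted by Benjamini and Hochberg's method over the 128 arms tested, with a threshold of 0.05. No p-value is given for the arms of the 4 hairpins. The fit was tested on simulated counts. Named arms were those of the 4 hairpins, the 2 nearest to each by profile, and up to 3 most abundant tested arms of the conserved and marker lists. Arms sharing a seed were not looked up, and no mature sequence was used here. Replicates of a stage correlated at 0.869 to 0.979 (log2 of CPM plus 10, across arms). Figures were drawn with matplotlib 3.10.9.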

Additional observations from a re-analysis of the deposited data

How the results depend on the processing

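The order of onset, with miR-67-3p before miR-236-3p before miR-76-3p before miR-34-3p, held at 10% and at 50% of the peak but not at every setting. At 25% of the peak the onsets were 180 min for miR-67-3p, 225 min for miR-236-3p and 410 min for both miR-76-3p and miR-34-3p, and at 50% they were 225, 270, 410 and 500 min. At 5% of the peak the onset of miR-34-3p was 120 min, ahead of miR-236-3p, as it also was with total counts in place of TMM factors and without 120 min replicate 1. By at least 1 read in all 3 libraries it was 225 min, and that of miR-67-3p was 120 min, as it was with total counts and without 60 min replicate 2. Without any 1 library the onset of miR-34-3p ranged over 120 to 410 min and that of miR-67-3p over 60 to 120 min, while miR-236-3p stayed at 225 min and miR-76-3p at 330 min. The peak of miR-236-3p was 410 min by the median of 3 libraries, and 330 to 410 min without any 1 library (410 min without 330 min replicate 2 or 410 min replicate 1). The other 3 arms kept their peak stage. With total counts miR-67-3p had 1384 CPM at 270 min and miR-76-3p 841 CPM at 500 min. The nearest arm kept its identity with total counts, and with no filter miR-52-3p, at 42 reads, was nearest to miR-67-3p.

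In the comparison of 500 min with 60 min, the conserved list had 0 lower arms with DESeq2 size factors, with DESeq2 and in the fit of 6 libraries (0 also at an unadjusted p under 0.05 in each), and 1 with no filter. Without any 1 library it had 0 to 2 lower arms and 12 to 16 higher. Over all arms, 21 to 36 were lower and 36 to 51 higher without any 1 library; 23, 21 and 22 were lower without 60 min replicate 1, 500 min replicate 1 or 500 min replicate 2 when the filter and TMM factors were computed anew. With the replicate block 44 arms were higher and 34 lower, against 44 and 36 without it. Libraries of the same number correlated at -0.136 to 0.463 in their deviations from stage means, and 21 of 24 correlated best with their own number, a hint from the data and not the design. Depth limits the early stages: at 60 min replicates 1 and 2 had 128667 and 99167 counts, and the onset of miR-67-3p there rests on 39 reads.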
